A study of Drosophila melanogaster with 36 samples.

Results

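The 2 Drosophila Hox proteins Ultrabithorax (Ubx) and Abdominal-B (Abd-B) were each expressed alone in Kc167 cells, and the regions bound in the Ubx line were compared with those bound in the Abd-B line. The Ubx list held 5278 regions and the Abd-B list 13511 at a q-value threshold of 1e-2, 18789 of the 112270 regions in the lists of 12 lines. All regions of either list were taken, and a region was called shared where it overlapped a region of the other list by at least 1 bp, and otherwise Ubx only or Abd-B only. Kc167 is an embryonic line with features of hemocytes, the insect blood cells, and the study describes it as lacking the Hox cofactor Homothorax (Hth). Each stable line carried an eGFP-tagged Hox gene under the metallothionein promoter on a plasmid with puromycin resistance, cells were sorted to a common range of green fluorescence, and chromatin was precipitated with an antibody to GFP. Expression was induced with 1 mM CuSO4 for 18 h in the Ubx line and with 0.5 mM CuSO4 for 24 h in the Abd-B line, so protein and induction cannot be told apart in this design. Each line had 2 ChIP libraries and 1 input library, and the authors merged the calls of both replicates into 1 list per line. The lists hold coordinates and no read counts, so there was no spread between replicates to test against, and no p-value is given. Percentages carry 95% exact binomial (Clopper-Pearson) intervals for the counting of regions, which leave out variation between cultures. Per the read overview of the authors, both Abd-B libraries had more mapped reads than either Ubx library, and the part of depth in the differences was not tested. The lists hold no expression values, so the hemocyte identity of the cells could not be checked by level.

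Hox proteins are homeodomain transcription factors that set the identity of segments along the body axis. Ubx acts in the posterior thorax and anterior abdomen, where it turns the dorsal appendage into a haltere in place of a wing, and Abd-B acts in the posterior abdomen, where it directs formation of the posterior spiracles, the genitalia and the pigmentation of the last segments. Most homeodomains, that of Ubx included, favour sites with a TAAT core, whereas those of the Abd-B class favour a TTAT core. With the cofactors Extradenticle and Hth, Hox proteins bind composite sites that join a TGAT half-site to a Hox half-site. Other words read here are those of GATA factors, such as Serpent in hemocytes, of the GAGA factor Trithorax-like, which binds GAGAG at many open promoters, and TATCGATA, the element bound by DREF at promoters of growth genes.

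The following sequences show examples of words that were compared between the classes. Each is the 60 bp stretch of a named region, outside exons, with the largest number of the words of its class, read from the plus strand of Release 6 of the genome (dm6). A different word set was marked in each class, and the stretches were picked for it. Their word counts therefore follow from the choice and do not compare the classes. Strict Ubx only regions passed q 1e-10 for Ubx with no Abd-B region at q 1e-2, and strict Abd-B only regions the reverse. A strict region can lie within a wider region of the same protein at q 1e-2 that is shared, which was so at Eip63E among those shown. Capitals mark TTAT-core words (TTTATG or TTTATT followed by A or G, either strand) in the strict Abd-B only regions, GATA words (AGATAA or TGATAA, either strand) in the strict Ubx only regions, and GAGAG on either strand in the shared region. The stretches are chr3R:25949643-25949702 (CCAP-R, intron), chr3R:14295740-14295799 (red, intron), chr2L:1425217-1425276 (intergenic, nearest gene CG43401), chr3R:19831872-19831931 (bnl, intron), chr3L:3406388-3406447 (sty, intron), chr3R:14413200-14413259 (cv-c, intron), chr3L:19040386-19040445 (nkd, intron), chrX:3405607-3405666 (CG12535, intron), chr3L:3556348-3556407 (Eip63E, intron), chr2L:11190376-11190435 (Ca-beta, intron) and chrX:7300989-7301048 (CG1677, intron).
Strict Abd-B only, CCAP-R: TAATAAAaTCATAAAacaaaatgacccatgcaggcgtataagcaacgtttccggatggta
Strict Abd-B only, red: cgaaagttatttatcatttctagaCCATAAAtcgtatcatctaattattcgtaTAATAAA
Strict Abd-B only, CG43401: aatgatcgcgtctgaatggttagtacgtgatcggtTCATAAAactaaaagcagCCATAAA
Strict Abd-B only, bnl: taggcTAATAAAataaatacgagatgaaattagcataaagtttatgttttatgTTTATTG
Strict Abd-B only, sty: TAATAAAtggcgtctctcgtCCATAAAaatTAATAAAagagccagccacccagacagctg
Strict Ubx only, cv-c: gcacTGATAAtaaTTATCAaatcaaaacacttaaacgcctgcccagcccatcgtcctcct
Strict Ubx only, nkd: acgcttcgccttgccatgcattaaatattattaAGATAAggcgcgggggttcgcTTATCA
Strict Ubx only, CG12535: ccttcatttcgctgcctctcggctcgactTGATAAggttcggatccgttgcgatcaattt
Strict Ubx only, Eip63E: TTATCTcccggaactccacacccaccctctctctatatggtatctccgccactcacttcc
Strict Ubx only, Ca-beta: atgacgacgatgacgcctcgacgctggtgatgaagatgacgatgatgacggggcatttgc
Shared, CG1677: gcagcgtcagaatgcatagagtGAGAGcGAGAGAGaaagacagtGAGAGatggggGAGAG
The stretch in sty held 3 TTAT-core words and those in CCAP-R, red, bnl and near CG43401 held 2 each. Stretches picked in the same way in smash and Pgant5, not printed, held 1 each. The shared stretch in CG1677 held 5 copies of GAGAG, and one near Rh5, not printed, held 1. Of the strict Ubx only stretches, those in cv-c and nkd held 2 GATA words, those in CG12535 and Eip63E held 1, and the Ca-beta region held none.

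Nearly all Ubx regions lay within the set bound by Abd-B, while most Abd-B regions had no Ubx counterpart. At q 1e-2, 5166 of 5278 Ubx regions overlapped an Abd-B region, 97.9% (97.5 to 98.2), and 112 were Ubx only. In the other direction 4366 of 13511 Abd-B regions overlapped a Ubx region, 32.3% (31.5 to 33.1), and 9145 were Abd-B only. At q 1e-10 the Ubx list fell to 1832 regions and the Abd-B list to 10375. The shared percentage was then 97.4% (96.6 to 98.1) of Ubx regions and 15.6% (14.9 to 16.3) of Abd-B regions, leaving 47 Ubx only and 8755 Abd-B only regions.

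**Figure D1:**
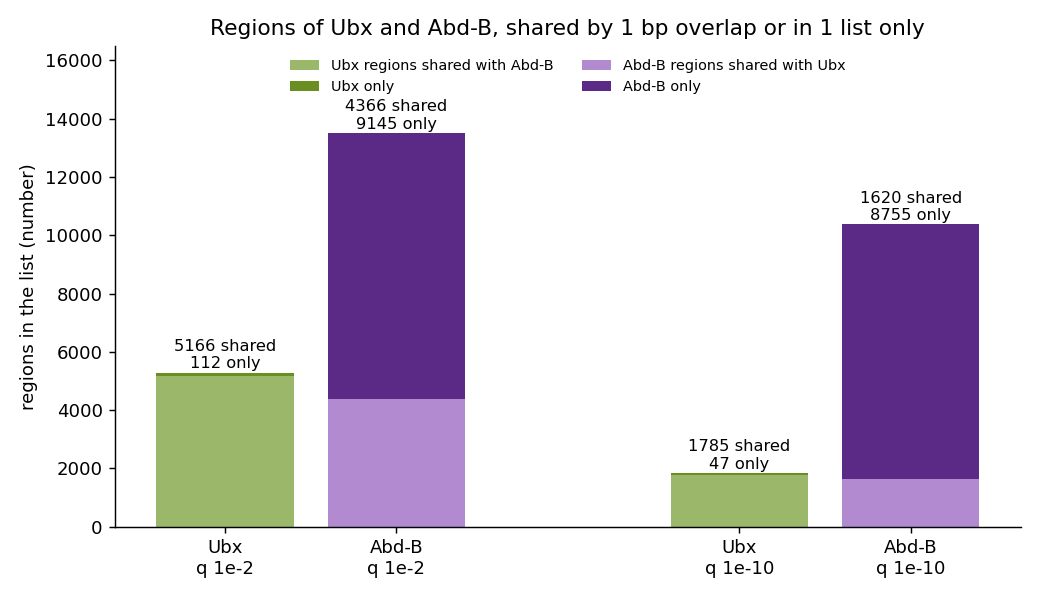
Number of regions in the Ubx and Abd-B lists (y axis) at q 1e-2 and q 1e-10 (x axis), split into regions that overlap the other list by 1 bp or more and regions in 1 list only. Ubx only regions form a thin cap of 112 and 47 regions, whereas Abd-B only regions number 9145 and 8755.

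The Ubx only class depended on the threshold used for Abd-B. With Ubx at q 1e-10 and Abd-B at q 1e-2, 7 of 1832 Ubx regions lacked an Abd-B region, 0.382% (0.154 to 0.786). With Abd-B at q 1e-10 and Ubx at q 1e-2, 5825 of 10375 Abd-B regions lacked a Ubx region, 56.1% (55.2 to 57.1). A region at q 1e-10 for the same protein was present in 6 of the 112 Ubx only regions, 5.36% (1.99 to 11.3), compared with 33.0% (31.7 to 34.3) of shared Ubx regions. Among Abd-B only regions 54.0% (53.0 to 55.0) held an Abd-B region at q 1e-10, compared with 92.9% (92.1 to 93.6) of shared Abd-B regions. For both proteins the only regions thus passed the strict threshold less often than the shared ones, beyond the intervals.

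The chromosome arms gave similar shares for Ubx regions and more varied ones for Abd-B regions. The percentage of Ubx regions shared ranged from 96.8% on X to 98.4% on 2R. That of Abd-B regions ranged from 29.5% (27.8 to 31.2) on 3L to 36.2% (34.2 to 38.2) on X, beyond the intervals. On the small chromosome 4 all 33 Ubx regions and 32 of 120 Abd-B regions were shared.

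Shared Ubx regions sat inside broader Abd-B regions. The median width was 526 bp for Ubx and 674 bp for Abd-B, and the lists covered 3.42 Mb and 12.6 Mb. Of the shared Ubx regions, 4530 (87.7%) lay wholly inside 1 Abd-B region. One-to-one pairs numbered 3713, their centres were a median of 82 bp apart, and the Ubx region was the narrower in 95.2% of them, with a median width ratio of Abd-B to Ubx of 1.65. A further 635 Abd-B regions held 2 or more Ubx regions, up to 6. By bases, 97.3% of the Ubx-covered sequence was also covered by Abd-B and 26.5% of the Abd-B-covered sequence by Ubx.

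The width of an Abd-B region went with the presence of Ubx. Abd-B regions shared with Ubx had a median width of 1112 bp and Abd-B only regions 555 bp. Of Abd-B regions up to 400 bp wide, 6.06% overlapped a Ubx region, rising to 88.0% of those wider than 2500 bp. A wider region has more bases in which an overlap can fall, so the counts were repeated with 400 bp windows on the centres of both lists. The share then went from 5.98% in the narrowest class through 18.2%, 31.3% and 46.7% to 48.1% in the class of 1501 to 2500 bp, and was 40.6% in the widest. Ubx only regions were the narrowest class, with a median of 380 bp.

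**Figure D2:**
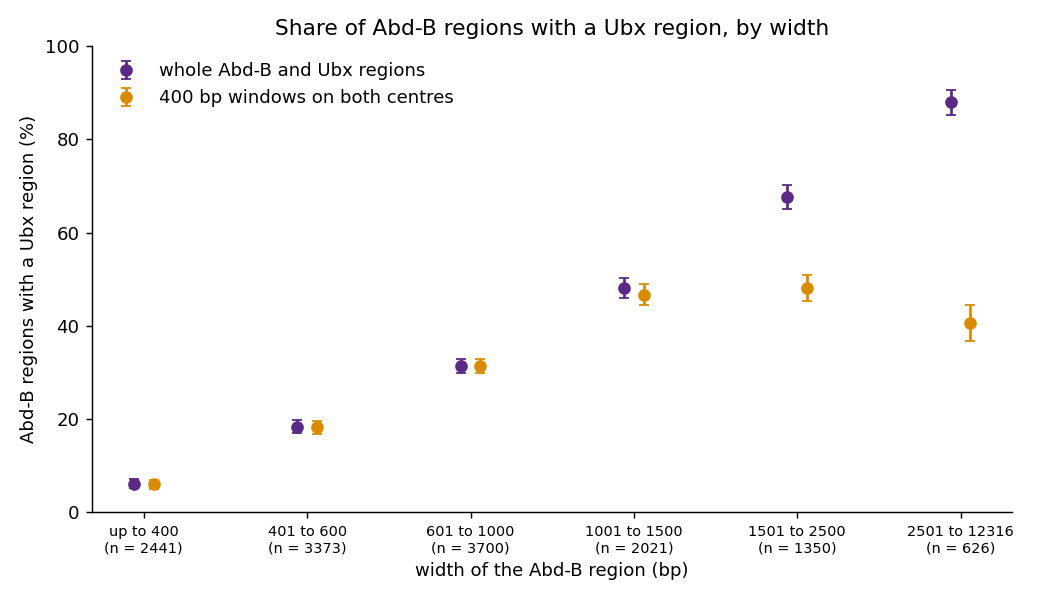
Percentage of Abd-B regions that overlap a Ubx region (y axis) by the width of the Abd-B region in bp (x axis, number of regions below each class), with 95% exact binomial intervals. With whole regions the share rose from 6.06% to 88.0%; with 400 bp windows on both centres it reached 48.1% and was 40.6% in the widest class.

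Most regions of the only classes lay at a distance from the other list. The median distance from an Abd-B only region to the nearest Ubx region was 5630 bp, and 622 of 9145 (6.80%) lay within 500 bp of one. Ubx only regions were a median of 1714 bp from the nearest Abd-B region, and 26 of 112 (23.2%) lay within 500 bp.

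The Hox words separated the classes. In the central 200 bp, 42.2% (41.2 to 43.2) of Abd-B only regions held a TTAT-core word, compared with 27.0% (25.7 to 28.4) of Abd-B regions shared with Ubx and 11 of 112 Ubx only regions, 9.82% (5.01 to 16.9). Windows of the same length centred 1000 bp to either side held one in 23.6% of cases around Abd-B only regions, 23.3% around shared Abd-B regions and 25.9% around Ubx only regions. Abd-B only regions were therefore above their surroundings by the widest margin, shared regions were slightly above, and Ubx only regions were below. GC content of centres and flanks also differed, 37.7% and 43.0% for Abd-B only and 49.0% and 42.4% for Ubx only regions. Its part in these margins was not tested. The difference between Abd-B only and shared Abd-B regions was 15.1 percentage points (13.5 to 16.8, normal approximation over regions), and it had the same sign in 5 of 5 chromosome arms.

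All 4 TTAT-core words took part. TTTATGA was in 10.6% of Abd-B only centres and 4.95% of their flanking windows, and TTTATGG in 10.8% and 4.90%. TTTATTA was in 15.8% and 9.17%, and TTTATTG in 15.4% and 7.91%. In shared Ubx regions the same words, at 4.86%, 5.38%, 9.85% and 8.73%, stayed near their flanking shares of 5.16%, 4.75%, 9.08% and 7.93%.

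The TAAT-core words (C or T before TAAT, and GA or TA after it) were also found most often in Abd-B only regions. They were in 24.1% (23.3 to 25.0) of Abd-B only centres, 16.5% (15.4 to 17.6) of shared Abd-B centres and 13.7% (12.8 to 14.7) of shared Ubx centres. The flanking windows held them in 15.5%, 14.2% and 14.6% of cases. Ubx only regions held one in 8 of 112, 7.14% (3.13 to 13.6), with 16.1% in their flanks. The centres of Ubx regions were thus not above their flanks for the core that the Ubx homeodomain favours.

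GAGAG and the GATA words ran differently. GAGAG was in 37.5% (28.5 to 47.1) of Ubx only centres, 35.4% (34.1 to 36.7) of shared Ubx centres and 30.3% (29.0 to 31.7) of shared Abd-B centres, but in 19.1% (18.3 to 19.9) of Abd-B only centres, where the flanks held 21.7%. GATA words were in 46 of 112 Ubx only centres, 41.1% (31.9 to 50.8), above 28.8% of shared Ubx and 29.8% (28.9 to 30.8) of Abd-B only centres. The flanks held GATA words in 22.0% to 24.1% of cases. TATCGATA was in 4.40% of Abd-B only and 3.16% of shared Ubx centres, with flanking shares of 0.683% and 0.678%. It was in 0 of 112 Ubx only centres, which allows a share of up to 2.68% by 3 counts of the total, or 3.24% as the upper bound of the exact interval. The composite word TGATTTAT, an Extradenticle half-site joined to a TTAT Hox half-site, was in 3.30% (2.95 to 3.69) of Abd-B only, 2.18% (1.76 to 2.65) of shared Abd-B and 1.63% (1.30 to 2.01) of shared Ubx centres.

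**Figure D3:**
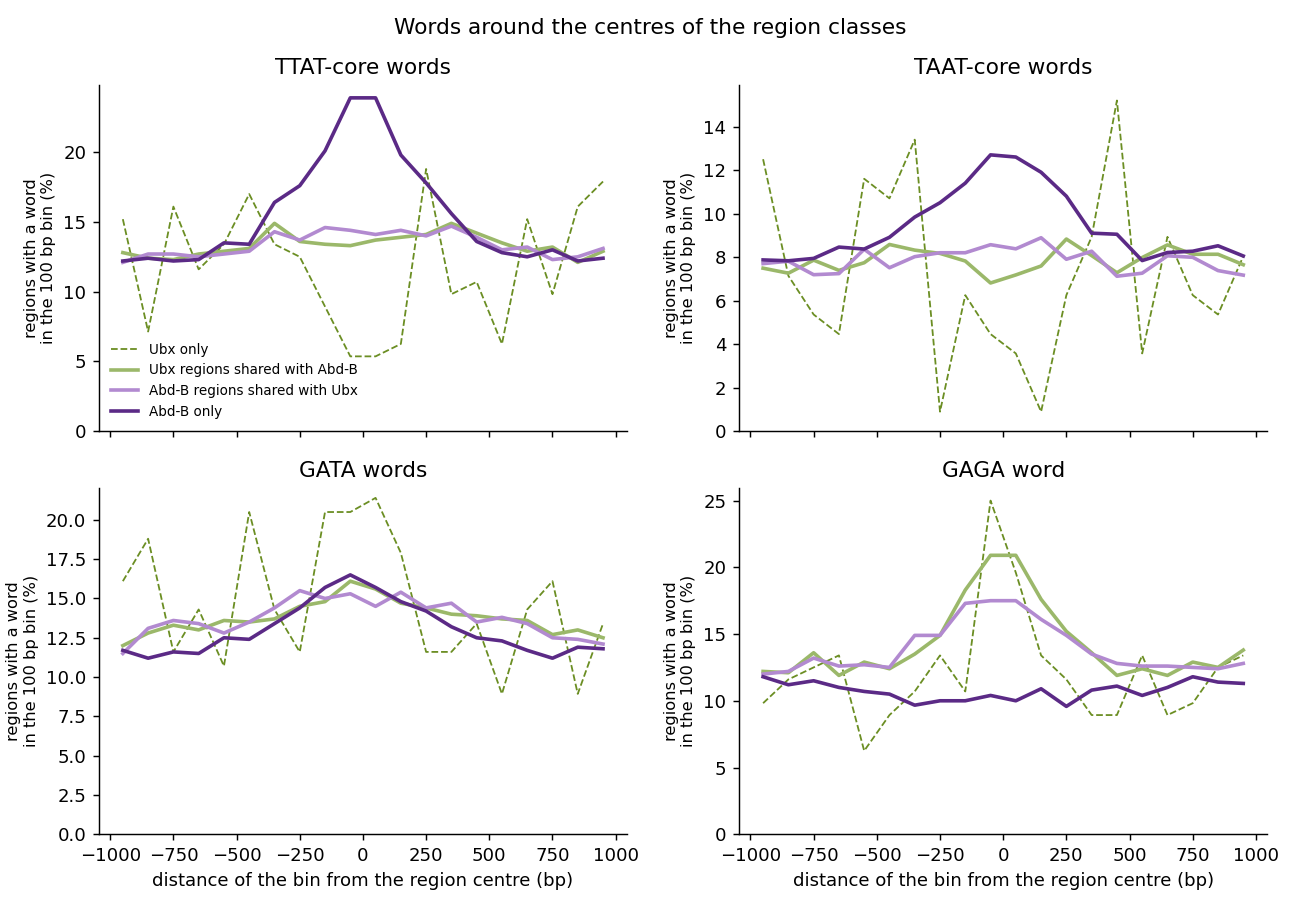
Percentage of regions with a word in each 100 bp bin (y axis) against the distance of the bin from the region centre in bp (x axis), for 4 word sets and 4 region classes. TTAT-core and TAAT-core words peak at the centre of Abd-B only regions, GAGAG peaks at shared and Ubx only regions, and the dashed line for Ubx only regions rests on 112 regions.

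Base composition moved with these words. The mean GC content of the central 200 bp was 49.0% ± 5.81 (SD over 112 regions) in Ubx only regions, 43.1% ± 7.30 in shared Ubx, 41.2% ± 7.85 in shared Abd-B and 37.7% ± 6.96 in Abd-B only regions, against 42.4% to 43.0% in the flanks. Centres were not compared with flanks at equal GC content, so its part in the differences between centre and flank was not tested for any word. Within classes of equal GC content the TTAT-core difference between Abd-B only and shared Abd-B regions remained positive but smaller. It was 12.3 percentage points at 30 to 35% GC, 12.1 at 35 to 40%, 12.1 at 40 to 45% and 8.47 at 45 to 50%. For TAAT-core words the differences in these classes were 5.39, 1.38, 5.69 and 5.11 points, compared with 7.64 without the classes. The GAGAG excess of shared Abd-B over Abd-B only regions, 11.2 points over all regions, was 4.12, 5.28, 7.62 and 8.44 points in the same classes. Ubx only regions were few in these classes, numbering 0, 8, 13 and 44. At 45 to 50% GC, 6 of the 44 held a TTAT-core word, 13.6% (5.17 to 27.4), compared with 26.5% (23.8 to 29.3) of Abd-B only regions. The comparison of Abd-B only with shared Abd-B regions also depended on reading the centre. Over whole regions, TTAT-core words were 5.27 points less frequent in Abd-B only than in shared Abd-B regions (a difference of -5.27), the shared regions being the wider.

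An open search was made over all words of 7 bases. Compared with shared Abd-B regions, the 5 words with the largest excess in Abd-B only regions were TTTTATG (16.0% against 8.41%), TTTAATT (22.8% against 15.5%), ATTTAAT (18.6% against 11.7%), TTTTATT (26.4% against 19.5%) and ATTTTAT (19.1% against 13.0%). Of these 5 words all but TTTTATG consist of A and T alone. Mean GC content was 37.7% in Abd-B only and 41.2% in shared Abd-B regions, and its part in these differences was not tested. The words with the largest excess in shared regions were CACACAC (12.3% against 6.87%), GAGAGAG (8.54% against 3.37%), ACACACA (13.1% against 8.03%), GAGAGCG (7.74% against 2.69%) and AGAGAGC (7.74% against 3.04%). A share higher by 2-fold or more was rare among 6902 words, with 0.116% of words higher in Abd-B only and 1.23% higher in shared regions. Against the 112 Ubx only regions such differences were common among 7066 words, 23.3% higher in Abd-B only and 24.1% higher in Ubx only. The number of regions and the GC content both differed between these classes, 112 against 9145 regions and 49.0% against 37.7%, and their part in these shares was not tested. AAAGGGG (16.1% against 2.53%) led on the Ubx only side and TTTTATT (26.4% against 4.46%) on the Abd-B only side.

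Each of the 7 strict Ubx only regions also held an Hth region in the line with Hth alone and a Ubx region in the line with Ubx and Hth. They lay at CG12535, cv-c, Eip63E (a cyclin-dependent kinase), Toll-7 (a Toll receptor), chn (a zinc finger factor), nkd (an inhibitor of Wingless signaling) and Ca-beta (a calcium channel subunit). Their widths ran from 265 bp at Ca-beta to 501 bp at CG12535. The distance to the nearest Abd-B region was 186 bp at cv-c and 266 bp at Eip63E, and between 566 bp at chn and 15171 bp at CG12535 in the other cases. Those at cv-c and Eip63E lay within the gap of 500 bp that one of the alternatives allows. At q 1e-2 the Ubx region at Eip63E was wider and overlapped an Abd-B region, so by the 1 bp rule at that threshold this site was shared, whereas the other 6 lay in Ubx only regions. Over their full width 6 of the 7 held a GATA word, and the region at nkd held the only TAAT-core word. Over whole regions at q 1e-2, GATA words were in 57.1% of Ubx only, 59.4% of shared Ubx and 61.8% of Abd-B only regions. The count of 6 in 7 regions therefore does not set them apart.

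Each of the widest strict Abd-B only regions held several Hox words. The 200 bp windows beside Abd-B only regions held a mean of 0.289 TTAT-core and 0.224 TAAT-core words, so a wide region can hold several by its width. The 3176 bp region in CCAP-R, the receptor of crustacean cardioactive peptide, held 11 TTAT-core and 8 TAAT-core words, and Ubx had no region within 52101 bp. The 3136 bp region in red held 11 and 9. The 3098 bp region near CG43401 held 8 TTAT-core and 19 TAAT-core words. In bnl, which encodes a fibroblast growth factor for tracheal branching, the 2981 bp region held 10 and 5, and in sty, an antagonist of receptor tyrosine kinase signaling, the 2815 bp region held 10 and 7. The others of the 10 widest lay at Swim, smash, Pgant5, sano and Indy. In this order they held 10, 3, 9, 5 and 6 TTAT-core words and 7, 7, 8, 7 and 5 TAAT-core words. The one at Swim lay within a shared Abd-B region at q 1e-2, as did 552 of the 5825 strict Abd-B only regions (9.48%). Of these 10, that in sano was alone in lacking an Abd-B region in the Abd-B+Hth line.

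The widest shared regions held more copies of GAGAG, 10 or more in 9 of the 10 named here, compared with 0 to 5 in the widest strict Abd-B only regions, though widths differed. The widest Abd-B region shared at q 1e-10, 9240 bp in the forkhead gene CHES-1-like, held 71 copies of GAGAG and 23 TTAT-core words. The next lay again in CHES-1-like, then in InR, the insulin receptor, in Tet and at Trf2 and lawc. The widest shared Ubx regions lay near Rh5, at ph-p, a Polycomb group gene, at CG46429 and Sesn, in CG1677 and at sbb, with 3, 15, 10, 23 and 17 copies of GAGAG. All of these shared regions held a region in all 10 other lines.

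Shared regions lay nearer to transcript starts than Abd-B only regions. The centre was within 500 bp of an annotated start in 54.9% (53.4 to 56.4) of shared Abd-B regions, 37.1% (36.1 to 38.1) of Abd-B only regions and 23.2% (15.8 to 32.1) of Ubx only regions. Centres in a 5′ UTR made up 20.9% of shared Abd-B and 13.6% of Abd-B only regions, and centres in a 3′ UTR 1.88% and 6.91%. Introns held 61.6% (51.9 to 70.6) of Ubx only centres, compared with 45.6% of shared Ubx and 46.6% of Abd-B only centres. The TTAT-core words followed this division. More than 500 bp from a start they were in 47.8% of Abd-B only and 29.9% of shared Abd-B centres, and within 500 bp in 32.5% and 24.7%.

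The other 10 lines separated the classes further. They carried the Hox protein Deformed (Dfd), Hth, the glial and hemocyte factor Glial cells missing (Gcm), or combinations of a Hox protein with Hth, Gcm or both. Induction differed among them: Hth and Ubx+Hth had 1 mM CuSO4 for 18 h, and Gcm, Ubx+Gcm, Ubx+Hth+Gcm and Abd-B+Hth had 2.5 mM for 24 h. Dfd had 2 mM and Dfd+Gcm 3.2 mM, both for 24 h, whereas Dfd+Hth had 2.66 mM and Dfd+Hth+Gcm 3.7 mM, both for 22 h. Shared Ubx regions were bound widely: 95.8% held a region in the Abd-B+Hth line, 93.8% in Ubx+Gcm, 91.4% in Hth alone and 87.5% in Dfd. Abd-B only regions held one in 75.5% (74.7 to 76.4) of cases in Abd-B+Hth, 36.6% (35.6 to 37.6) in Dfd, 34.2% (33.2 to 35.2) in Hth alone and 17.4% (16.7 to 18.2) in Gcm alone. Of the Abd-B only regions, 3000 (32.8%) had no region in any line outside Abd-B and Abd-B+Hth.

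Ubx occupied part of the Abd-B only set when a cofactor was present. Ubx+Gcm had a region at 2704 of 9145 Abd-B only regions, 29.6% (28.6 to 30.5), Ubx+Hth at 985, 10.8% (10.1 to 11.4), and Ubx+Hth+Gcm at 24.3% (23.4 to 25.2). At least 1 of these lines had a region at 39.6% of the Abd-B only set. The Ubx+Hth list was close in size to that of Ubx (4885 and 5278 regions) and shared its induction of 1 mM for 18 h, whereas Ubx+Gcm, with 8827 regions, was induced with 2.5 mM for 24 h. Of the regions of Ubx+Gcm that did not overlap a Ubx region, 71.0% (69.6 to 72.3) overlapped an Abd-B region, and of those of Ubx+Hth 76.9% (74.7 to 78.9).

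Where Ubx appeared with a cofactor, regions of other lines were also more frequent. Hth alone had a region at 73.9% (71.0 to 76.6) of the Abd-B only regions with Ubx+Hth and at 29.4% (28.4 to 30.4) of those without. Gcm alone had one at 39.9% (38.0 to 41.7) of those with Ubx+Gcm and at 8.03% (7.37 to 8.72) of those without. Dfd alone, which is not the cofactor of that line, had one at 60.9% (59.0 to 62.8) of those with Ubx+Gcm and at 26.4% (25.3 to 27.5) of those without. The composite word TGATTTAT was in 7.51% (5.94 to 9.34) of Abd-B only regions with Ubx+Hth and in 2.79% (2.45 to 3.18) of those without. With and without Ubx+Gcm it was in 2.55% (1.99 to 3.22) and 3.62% (3.17 to 4.10). TTAT-core words were less frequent where Ubx+Gcm had a region, 32.3% (30.6 to 34.1) against 46.3% (45.1 to 47.5). Dfd, whose homeodomain favours TAAT, went with TAAT-core words, which were in 29.7% (28.1 to 31.3) of Abd-B only regions with Dfd and 20.9% (19.9 to 22.0) of those without. For TTAT-core words the order was the other way, 34.9% and 46.3%. A lower TTAT-core share was not particular to Ubx+Gcm and Dfd. It was 30.5% with and 48.2% without a region of Hth alone, and 33.8% and 43.9% for Gcm alone. With and without Ubx+Hth it was 39.7% and 42.5%, and for Abd-B+Hth the order was reversed, 42.6% and 40.9%.

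Ubx only regions overlapped Hth regions more often than regions of any other line. Among shared Ubx regions 91.4% (90.6 to 92.1) overlapped an Hth region, so a high share with Hth was not particular to Ubx only regions. Hth alone had a region at 96 of the 112, 85.7% (77.8 to 91.6), Ubx+Gcm at 50.9% (41.3 to 60.5), Gcm alone at 40.2% (31.0 to 49.9), Ubx+Hth at 37.5% (28.5 to 47.1), Dfd at 33.0% (24.4 to 42.6) and Abd-B+Hth at 18.8% (12.0 to 27.2). The Hth and Ubx+Hth lines were induced as the Ubx line was, with 1 mM for 18 h, and the Abd-B line and the other lines were not, so the part of induction in these shares was not tested. A region in no other line was found for 3 of them. Ubx in the presence of Hth, Gcm or both therefore had a region at fewer of the Ubx only regions than of the shared Ubx regions, of which it had 63.7% with Hth, 93.8% with Gcm and 87.1% with both.

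**Figure D4:**
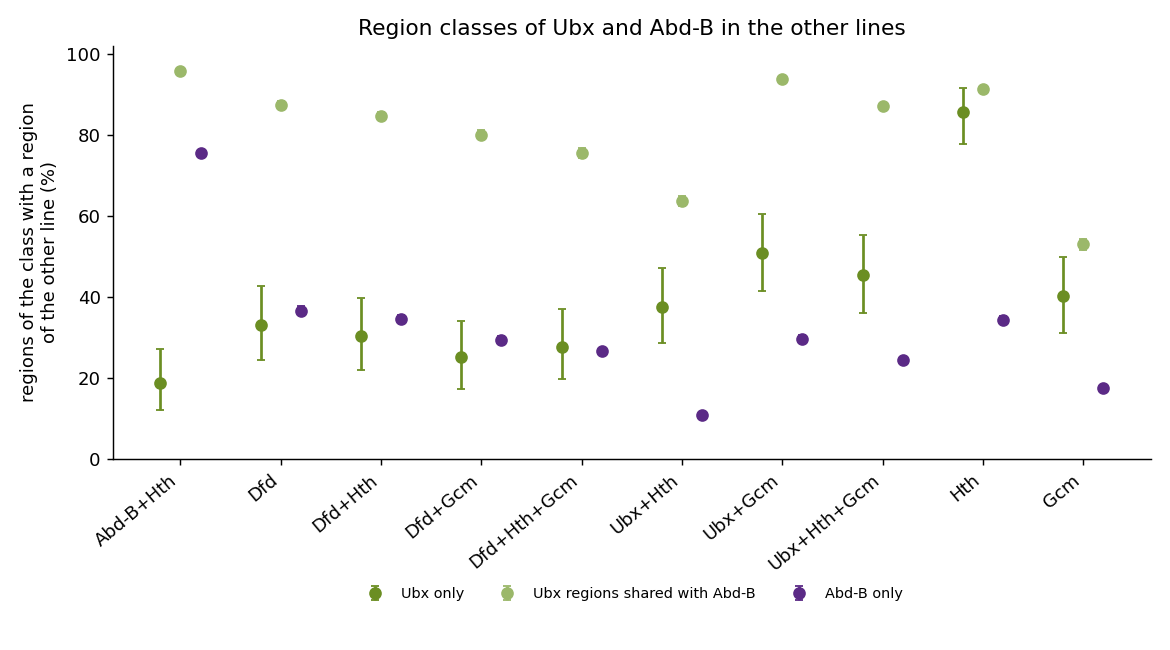
Percentage of Ubx only, shared Ubx and Abd-B only regions (y axis) that overlap a region of each of the 10 other lines (x axis), with 95% exact binomial intervals. Shared regions are high throughout, Ubx only regions reach 85.7% with Hth alone, and Abd-B only regions reach 75.5% with Abd-B+Hth and 10.8% with Ubx+Hth.

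At the level of genes, 39.1% of 13945 protein-coding genes had a Ubx region in the gene or within 2 kb and 71.4% had an Abd-B region. An Abd-B only region lay at 58.7% of genes, and 32.5% had an Abd-B region and no Ubx region, whereas 21 genes had a Ubx region and no Abd-B region. Long genes have more room for regions, so counts per gene are not levels of binding. Genes in more than 1 list count in each. Genes named below with Abd-B regions and no Ubx region are to be read beside the 32.5% of all genes.

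Known targets of Ubx in the haltere and wing were near regions of both proteins. Of 16 such genes 15 had a Ubx region and the same 15 an Abd-B region, ato being the exception, and 11 had an Abd-B only region. Over all protein-coding genes these shares were 39.1%, 71.4% and 58.7%. The median gene in the list was 19857 bp long, compared with 2166 bp over all genes. The widest gap was at tkv, a receptor of Dpp, with 1 Ubx and 22 Abd-B regions. sbb, a repressor in wing patterning, had 9 and 24, dally, a proteoglycan of morphogen transport, 4 and 16, and sd, the DNA-binding partner of Vestigial, 4 and 11. wg and vg had 1 region of each, shared in both cases.

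Genes of the posterior body had Abd-B regions more often than Ubx regions, as did all protein-coding genes (71.4% against 39.1%), so the order is not particular to these lists. Of 14 posterior spiracle and terminal targets of Abd-B, 9 (64.3%) had a Ubx region and 12 (85.7%) an Abd-B region, all 12 with an Abd-B only region. An Abd-B only region lay at 58.7% of all protein-coding genes. The median gene in the list was 11541 bp long, compared with 2166 bp over all genes. An Abd-B region without a Ubx region was found at 3 of the 14 (21.4%), compared with 32.5% of all genes. ems, a homeobox gene of the filzkörper, had 2 Abd-B regions and no Ubx region, and Cad86C, a cadherin, had 4 and none. cv-c had 7 Ubx and 17 Abd-B regions and ct, a homeobox gene of the spiracular chamber, 5 and 17. Of 10 genes of abdominal pigmentation and genitalia, 5 had a Ubx and 9 an Abd-B region. The pigment genes y, t and e had 2, 1 and 4 Abd-B regions and no Ubx region. dsx, the sex determination gene, had 2 Ubx and 12 Abd-B regions, and the repressors of pigmentation bab1 and bab2 had 9 and 16, and 2 and 9.

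Among the 8 Hox genes, 6 had a Ubx region and all 8 an Abd-B region, compared with 39.1% and 71.4% of all protein-coding genes. The median Hox gene was 30563 bp long. Scr had 4 Abd-B regions and abd-A 1, none with Ubx. Within the Ubx gene, each list had 1 region, Ubx at chr3R:16702726-16703325 and Abd-B at chr3R:16702663-16703451, and within the Abd-B gene each had 2, all overlapping those of the other list. No region of either list lay over the coding exons of Ubx or Abd-B, where the authors removed signal of the plasmids. Of 7 genes of the TALE class, the homeobox class of Exd and Hth, 3 had a Ubx and 6 an Abd-B region. hth had 4 and 13, and exd 0 and 3.

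Hemocyte regulators had regions of both proteins, 7 of 8 genes (87.5%) in each list, with gcm lacking both. Over all protein-coding genes the shares were 39.1% for Ubx and 71.4% for Abd-B. The median hemocyte regulator gene was 21132 bp long, compared with 2166 bp over all genes. ush, a cofactor of GATA factors, had 20 Ubx and 25 Abd-B regions, the ETS factor gene pnt 14 and 26, and srp, the GATA factor of hemocytes, 6 and 13. Of 12 Polycomb and trithorax group genes 9 had a Ubx and 12 an Abd-B region, and of 7 JAK/STAT genes 5 and 6. hop, the Janus kinase, had 6 Abd-B regions and no Ubx region.

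Muscle, heart, neural, limb, cell death and ribosomal protein genes made up the other lists, to be read beside 39.1% (Ubx) and 71.4% (Abd-B) of all protein-coding genes. Of 10 muscle structural genes 1 had a Ubx region, Tm1, and 6 had an Abd-B region, but 2 had one by gene body alone. Of 12 heart and visceral mesoderm genes 7 had a Ubx and 11 an Abd-B region, of 12 neural identity genes 5 and 10, and of 10 limb and trunk patterning genes 8 and 10. The limb gene Dll had 2 Abd-B only regions. Of 7 cell death genes, hid, Dronc, Diap1 and Dark had regions of both proteins, and rpr, grim and skl had neither. Of 92 cytosolic ribosomal protein genes, whose median length was 1325 bp, 54.3% had a Ubx and 95.7% an Abd-B region.

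**Figure D5:**
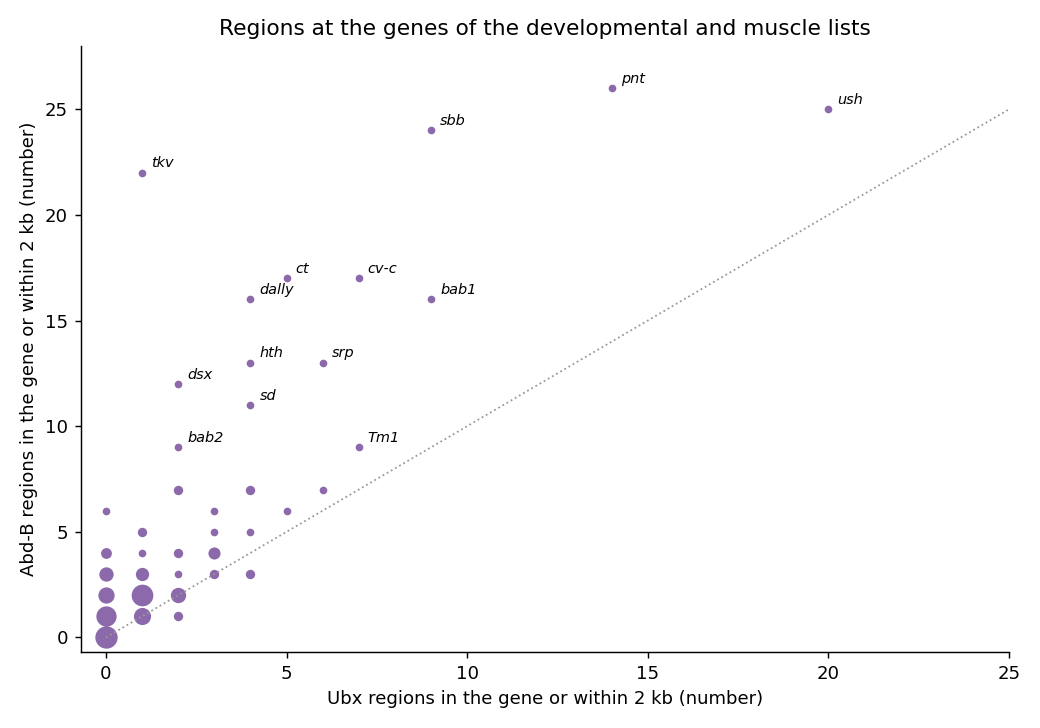
Number of Abd-B regions (y axis) against Ubx regions (x axis) in or within 2 kb of the 122 genes of 13 lists (ribosomal protein genes not drawn), with larger points where several genes coincide and a dotted line of equal numbers. Of these genes 84 had more Abd-B than Ubx regions, 34 had as many (16 of them at 0 in both) and 4 had more Ubx regions. Over all protein-coding genes the mean was 1.73 Abd-B and 0.659 Ubx regions, so more Abd-B regions are not particular to these lists. The gene tkv stands out with 1 Ubx and 22 Abd-B regions.

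The genes with the most strict Abd-B only regions were long. bun, a gene of the TSC22 family, had 22 over 91.1 kb, kirre, a membrane protein of myoblast fusion, 19 over 394 kb, pyd, the fly ZO-1 junction protein, 18 over 105 kb and tkv 18 over 52.4 kb. Svil had 15, CG43739 and sky, which share their annotated coordinates, 14 of the same regions, and SNF4Agamma, a subunit of the AMP-activated kinase, mtgo and sbb had 13 each. bun and SNF4Agamma also held 17 and 13 shared Ubx regions, so genes with many Abd-B only regions were not without Ubx.

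Ubx only regions were spread over many genes, 127 in all, of which 117 had a single one. Mnr had 3, and CG12535, CG4168, CG9164, Cngl, cv-c, kirre, luna, nkd and ush had 2 each. CG4168, CG9164 and Cngl had no Abd-B region in the gene or within 2 kb. CG9164 and Cngl are neighbours on X and count the same 2 Ubx only regions, and CG4168 lies on 2L. nkd had 2 Ubx only and 2 Abd-B only regions and no shared one.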

How the data were processed

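ChIP libraries of the Ubx and Abd-B lines were compared as deposited region lists. Per the study's methods, the authors mapped unique matches to the dm6 chromosomes (Bowtie 1.2.2), ran MACS2 2.1.1.20160309 on each replicate, with the input as control, at q 1e-2 and q 1e-10, removed regions over exons carried on the plasmids, and merged overlapping regions of both replicates. The deposited values are start and end coordinates only, with no counts, signal or usable score, so depth per library is not in the files and leaving out a replicate was not possible. The deposited q-value thresholds define the 2 lists of each line.

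Region starts were made 1-based. Overlaps, word counts and intervals were computed with Python 3.11.15, numpy 2.4.6 and scipy 1.17.1, and were tested on simulated regions; overlap counts were the same with bedtools 2.31.1 in 6 of 6 comparisons. Words were read on both strands, overlapping matches included, in the central 200 bp and in windows 1000 bp away. Genes and transcript starts came from Ensembl release 115 and sequences from RefSeq Release 6 (dm6). All 214 list genes were found. Named regions are the widest strict and shared ones, the genes with the most strict Abd-B only and Ubx only regions, and the list genes. The classes, words and lists were chosen with earlier results of these data known. No test was run, since each line is 1 list. The alternatives tried were the other threshold, overlap rules, window sizes, gene margins, region widths and chromosome arms, and, chosen after seeing the data, classes of GC content, distance from a start and words against shared regions.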

Additional observations from a re-analysis of the deposited data

How the results depend on the processing

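The containment of Ubx regions in the Abd-B set held under every overlap rule and threshold tried, except that smaller windows separated more pairs. The share of Ubx regions with an Abd-B region, 97.9%, was 97.4% with both lists at q 1e-10, 99.6% with only Ubx at q 1e-10, 91.1% with only Abd-B at q 1e-10, 98.4% when gaps up to 500 bp counted and 72.5% with 400 bp windows on the centres. The share of Abd-B regions with a Ubx region, 32.3%, was 15.6%, 11.4%, 43.9%, 36.9% and 27.9% under the same 5 settings, and 31.5% without arm X. Ubx only regions, 112, numbered 47, 7, 471 and 1454 with both lists, only Ubx and only Abd-B at q 1e-10 and with 400 bp windows. Abd-B only regions, 9145, numbered 5825 with only Abd-B at q 1e-10.

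The TTAT-core excess of Abd-B only over shared Abd-B regions, 15.1 percentage points, was 17.2 with strict regions, 13.1 on arm X, 12.3, 12.1, 12.1 and 8.47 in the classes of GC content, 7.82 within 500 bp of a start and 18.0 farther away, and turned to -5.27 over whole regions. The excess over Ubx only regions, 32.3 points, was 44.8 over whole regions, 40.4 in 400 bp, 44.8 with strict regions (7 Ubx only), 40.1 on arm 3R and 26.0 on arm X. It was smaller at 45 to 50% GC, with 26.5% of Abd-B only and 13.6% of 44 Ubx only regions, and the intervals overlapped. Over whole regions the TAAT-core excess over shared Abd-B regions turned from 7.64 to -9.56 points, and the GATA excess of Ubx only over Abd-B only regions from 11.3 to -4.64. Region widths differ between the classes, and their part in these reversals was not tested.

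Abd-B only regions with Ubx+Gcm, 29.6%, were 4.32% with that list at q 1e-10 and 37.4% among strict regions. The values for Ubx+Hth, 10.8%, were 3.69% and 14.8%, and for Ubx only regions with Hth, 85.7%, they were 67.9% and 100% (7 of 7). Of Ubx regions shared at q 1e-10, 98.3% held an Hth region. Shared Abd-B regions lay within 500 bp of a start more often than Abd-B only regions by 17.8 points, and by 6.62 with strict regions. Genes near an Abd-B only region, 58.7%, were 41.0% by gene body, 82.5% with 10 kb and 42.4% with strict regions. No paired analysis was possible because the lists merge both replicates of a line, and for the same reason no replicate could be left out.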
